A study of Homo sapiens with 9 samples.

Results

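The genes described here are the receptors of the epidermal growth factor receptor (ErbB) family, 5 of their ligands and the feedback inhibitor ERRFI1, in MDA-MB-468, a human cell line from a breast adenocarcinoma that is known for amplification of the EGFR gene. The 10 members were taken by symbol from a table of 56809 genes: the receptors EGFR, ERBB2, ERBB3 and ERBB4, the ligands AREG, EREG, TGFA, HBEGF and BTC, and ERRFI1. All 10 were in the table, 8 had enough counts to be tested, and EREG and ERBB4 did not. RNA was sequenced in 9 libraries, 3 in each of 3 groups. The control group had been infected with the empty vector pSicoR, a lentiviral vector for short hairpins, and the other groups with the hairpin shLMO2-1 or shLMO2-2. Both hairpins carry the name of LMO2, a LIM-domain protein that joins transcription factors into complexes and binds no DNA itself. Each sample was 200000 cells of the 1 line, and the labels name neither a hairpin of unrelated sequence nor a parental, uninfected group. The labels do not say that the 3 libraries of a group came from separate cultures, so p-values measure only the spread between these libraries, which may be technical.

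The ErbB receptors are tyrosine kinases of the cell surface that signal as pairs. EGFR binds TGF-alpha, amphiregulin, betacellulin, epiregulin, HB-EGF and EGF, ERBB3 and ERBB4 bind neuregulins, and ERBB2, which has no known ligand of its own, acts as a partner of the others. Ligands are made as membrane proteins and cut free by proteases of the ADAM family, and active receptors signal through adaptors to RAS and the MAP kinases. ERRFI1 (MIG6) is induced by this pathway, binds the kinase domain of EGFR and inhibits it.

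By GENCODE release 29 on GRCh38, EGFR lies at chr7:55019021-55211628 on the plus strand, ERBB2 at chr17:39687914-39730426 (plus), ERBB3 at chr12:56076799-56103505 (plus) and ERBB4 at chr2:211375717-212538841 (minus). AREG (chr4:74445134-74455009, plus), EREG (chr4:74365143-74388751, plus) and BTC (chr4:74744759-74794686, minus) stand with EPGN, the gene of epigen, in a stretch of 486.2 kb on chromosome 4 that holds these 4 ligand genes. TGFA lies at chr2:70447280-70554193 (minus), HBEGF at chr5:140332843-140346631 (minus) and ERRFI1 at chr1:8004404-8026308 (minus). All are protein-coding genes, and the values are sums over a gene's transcripts, so exons and isoforms were not resolved.

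The sequences below are the 250 bases before the start of EGFR and of ERRFI1, the members whose RNA differed from control with 1 hairpin, and of AREG, the member whose window held the rarest of the motifs searched. They are RefSeq promoter windows on GRCh38.p14 and are written 5′ to 3′ on the gene's strand, with the motif in capitals. In EGFR (chr7:55018767-55019016, plus) the capitals mark 2 GC boxes, which begin at −204 and −36 relative to the start and are read on the opposite strand. In ERRFI1 (chr1:8026310-8026559, minus) they mark 1 GC box that begins at −70. In AREG (chr4:74444886-74445135, plus) they mark a cyclic AMP response element that begins at −65.
EGFR: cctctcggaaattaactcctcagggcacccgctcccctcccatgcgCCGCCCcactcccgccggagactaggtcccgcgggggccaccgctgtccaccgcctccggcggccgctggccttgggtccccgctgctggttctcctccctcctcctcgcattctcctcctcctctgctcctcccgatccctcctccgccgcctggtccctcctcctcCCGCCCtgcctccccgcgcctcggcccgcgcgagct
ERRFI1: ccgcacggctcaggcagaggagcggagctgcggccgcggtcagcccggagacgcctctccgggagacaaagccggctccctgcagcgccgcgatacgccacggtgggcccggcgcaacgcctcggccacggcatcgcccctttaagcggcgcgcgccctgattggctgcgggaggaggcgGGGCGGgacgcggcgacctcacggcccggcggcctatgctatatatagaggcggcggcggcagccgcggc
AREG: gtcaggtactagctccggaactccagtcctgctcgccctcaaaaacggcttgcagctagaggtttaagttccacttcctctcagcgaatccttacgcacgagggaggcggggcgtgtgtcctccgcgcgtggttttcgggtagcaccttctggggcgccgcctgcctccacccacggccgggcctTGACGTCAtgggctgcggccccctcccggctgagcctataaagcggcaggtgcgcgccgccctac

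Of the members, 9 matched this promoter table, with 11 windows, and ERBB3 was not in it. Both strands were searched for a GC box (GGGCGG), an E box (CAGNTG), a cyclic AMP response element (TGACGTCA), the AP-1 site (TGANTCA), the GATA site (AGATAA) and the TEAD site (GGAATG). Over all 35116 windows of this length, 42.6% held a GC box, 42.5% an E box, 11.9% a TEAD match, 9.17% a GATA match, 6.57% an AP-1 match and 1.65% a cyclic AMP response element. Among the members, AREG alone held the last of these. HBEGF held 5 GC boxes, ERBB2 held 1 AP-1 match, a second start of EGFR held 2 AP-1 matches and 1 TEAD match, EREG held 1 TEAD match, and none held the GATA match. A match describes the letters only and was not linked to any value below.

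Libraries held 15494486 to 23069456 counts. Values are CPM, counts per 1000000 of the library total after TMM correction of that total, with factors between 0.966 and 1.038. The 3 shLMO2-2 libraries were the deepest. In them 3 counts stood for 0.130 to 0.139 CPM, and in the other libraries for 0.154 to 0.198 CPM. Equal counts therefore mean a lower level with shLMO2-2. Tests are edgeR's quasi-likelihood F-tests over all 14709 genes that passed a filter on low counts, with Benjamini-Hochberg adjustment, and a gene was called at an adjusted p under 0.05. The epithelial markers EPCAM (369 to 437 CPM), KRT8 (1700 to 2760 CPM) and the basal keratin KRT5 (2480 to 3640 CPM) were high in all 9 libraries, and PGR, CD3E and COL3A1 had 0 counts in each. Other markers of the same kinds differed from these. The basal keratin KRT14 was at 12.7 to 25.1 CPM and the hormone receptor ESR1 at 2.47 to 6.1 CPM. The leukocyte marker CD14 was at 0.793 to 3.56 CPM and the fibroblast marker COL1A1 at 9.48 to 17.1 CPM. The endothelial marker KDR was at 3.74 to 12.8 CPM. LMO2 itself gave 4, 35 and 19 counts in control replicates 1 to 3, 2, 1 and 6 in shLMO2-1 and 1, 4 and 3 in shLMO2-2. Its log2 fold change was −2.44 in shLMO2-1 (adjusted p = 0.0907 by edgeR) and −3.02 in shLMO2-2 (adjusted p = 0.0441). Over the fits without 1 library the LMO2 values ran from −3.47 to −1.74 and from −3.48 to −2.32, and the shLMO2-2 call was lost in 9 of 19 alternatives, with limma-voom (adjusted p = 0.0928) and without control replicate 2 (0.138) among them. The shLMO2-1 value of LMO2 passed the threshold in 3 of 18 alternatives. By edgeR it passed with no filter on low counts (adjusted p = 0.0253) and with the replicate number as a block (0.0417). It also passed without control replicate 1 (−2.9, adjusted p = 0.0268). In control replicate 1 LMO2 was at 0.232 CPM, below shLMO2-1 replicate 3 (0.396 CPM) and above the other 5 hairpin libraries. This control was also the highest or lowest control in 82.0% of all genes tested and in each of the 8 members tested. Among 3 controls only the middle one is neither, so a large share is usual for any control. Values without control replicate 1 are given below for each of the 8 members.

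EGFR RNA was higher with shLMO2-1 than in control cells by 1.37-fold, and no call was made with shLMO2-2. EGFR stood at 6260, 4784 and 5370 CPM in control replicates 1 to 3, at 7516, 7937 and 7068 CPM with shLMO2-1, and at 5557, 6486 and 5910 CPM with shLMO2-2. All 3 shLMO2-1 libraries lay above all 3 controls, while 2 of the shLMO2-2 libraries lay inside the range of the controls. The means were 5471 ± 743, 7507 ± 435 and 5985 ± 469 CPM in control, shLMO2-1 and shLMO2-2 (SD, n = 3). The log2 fold change of EGFR with shLMO2-1 was 0.46 (SE 0.09, 95% interval 0.26 to 0.65), with an adjusted p of 0.0123 by edgeR. With shLMO2-2 it was 0.13 (interval −0.07 to 0.33, adjusted p = 0.414 by edgeR). Without control replicate 1, the highest control, the difference with shLMO2-1 was 0.56 (adjusted p = 0.00106) and that with shLMO2-2 was 0.23 (adjusted p = 0.0786). The shLMO2-1 call was lost without control replicate 3 (0.44, adjusted p = 0.0501) or shLMO2-1 replicate 2 (0.41, adjusted p = 0.0602).

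The EGFR level took 0.482% to 0.788% of all counts of a library. By CPM it ranked 3 among all genes in 8 libraries and 4 in control replicate 2. Per kilobase of exon it ranked between 29 and 65, since its exons together are long (12521 bases). Reads of the antisense gene EGFR-AS1, which overlaps EGFR, numbered 1 to 21 per library.

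**Figure D1:**
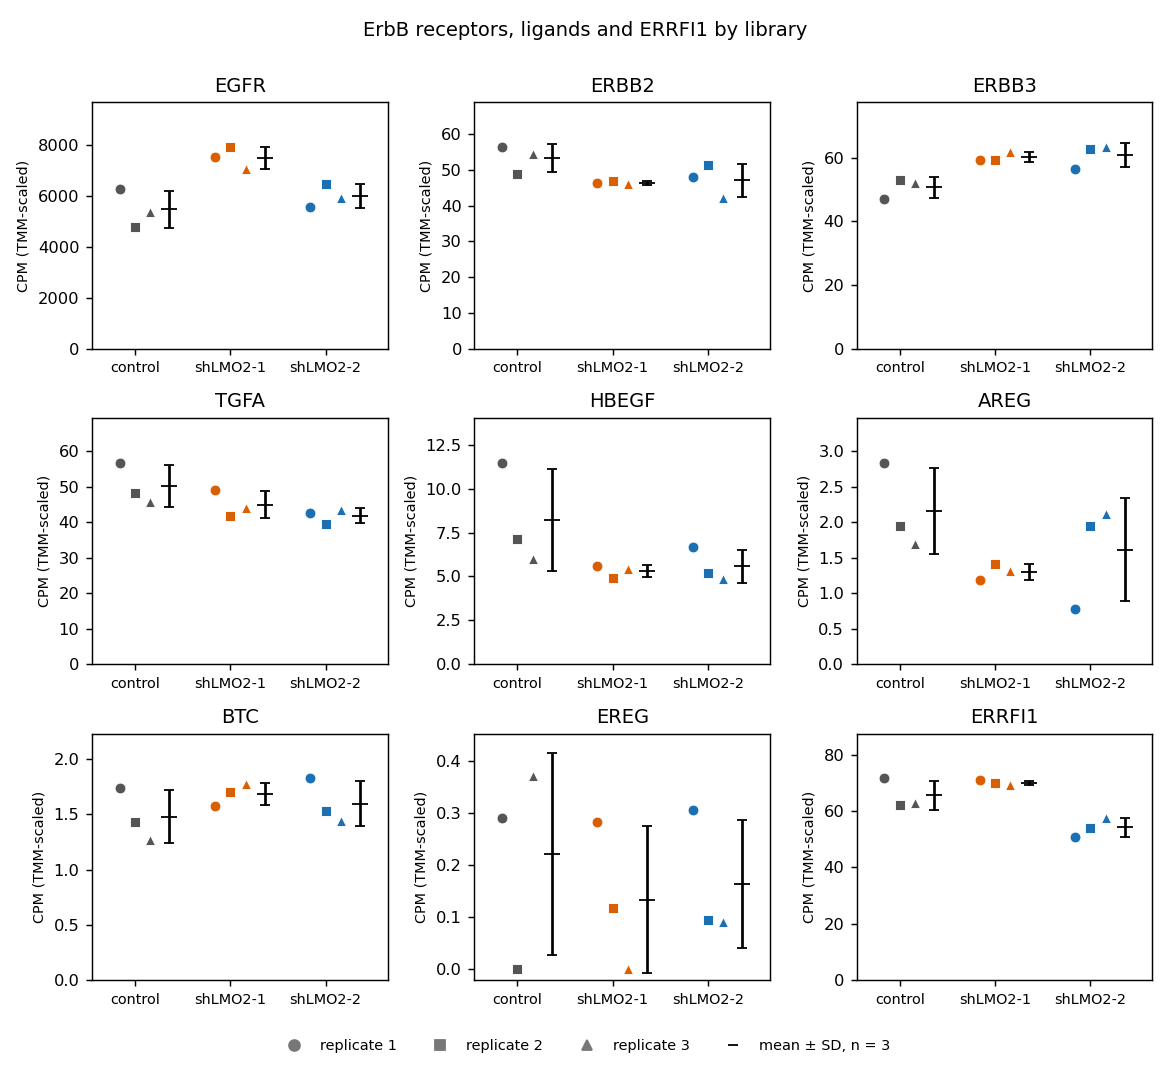
Abundance of 9 members in each library. Each panel plots CPM (y axis) for 3 control, 3 shLMO2-1 and 3 shLMO2-2 libraries (x axis), with circles, squares and triangles for replicates 1, 2 and 3 and a bar for the mean ± SD (n = 3). The bar of EREG with shLMO2-1 runs slightly below 0, since its SD exceeds its mean. All 3 shLMO2-1 libraries lie above the controls in EGFR, all 6 hairpin libraries lie above the controls in ERBB3, and all 3 shLMO2-2 libraries lie below the controls in ERRFI1.

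ERBB3, the receptor with a weakly active kinase that binds neuregulins, was higher in all 6 hairpin libraries than in all 3 controls, by about the same amount with each hairpin. It stood at 46.9, 53.0 and 52.1 CPM in control, at 59.1, 59.4 and 61.9 CPM with shLMO2-1, and at 56.5, 62.8 and 63.4 CPM with shLMO2-2. No hairpin library reached down into the range of the controls. Against control, neither hairpin alone passed the threshold: the log2 fold change of ERBB3 was 0.25 with shLMO2-1 (adjusted p = 0.0688 by edgeR) and 0.26 with shLMO2-2 (adjusted p = 0.0508). Each passed under DESeq2 (adjusted p = 0.0442 with shLMO2-1 and 0.0254 with shLMO2-2). Each also passed in edgeR with the replicate number as a block (0.027 and 0.0185). The mean of both hairpins, a comparison added after the data were seen, gave 0.25 (SE 0.065, interval 0.11 to 0.40, adjusted p = 0.0286 by edgeR). That call was lost without control replicate 1, the lowest control (0.20, adjusted p = 0.0817), and without control replicate 3 (adjusted p = 0.0720). It was also lost when shLMO2-1 replicate 2 (0.0575) or replicate 3 (0.0572) was left out, and when shLMO2-2 replicate 2 (0.0681) or replicate 3 (0.0633) was. Of all genes tested, 8.12% had all 6 hairpin libraries above the controls.

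ERBB2, the partner receptor, was not called with either hairpin. Its level was 56.5, 49.0 and 54.6 CPM in control, 46.4, 46.9 and 46.0 CPM with shLMO2-1, and 47.9, 51.4 and 42.2 CPM with shLMO2-2. The shLMO2-1 libraries lay closely together below all 3 controls, and 1 shLMO2-2 library reached into the control range. The log2 fold change of ERBB2 was −0.20 with shLMO2-1 (interval −0.39 to −0.01, adjusted p = 0.187 by edgeR) and −0.18 with shLMO2-2 (interval −0.37 to 0.01, adjusted p = 0.234). ERBB2 had −0.16 and −0.14 without control replicate 1. With trends in GC content and length removed, ERBB2 passed the threshold with shLMO2-1 (−0.28, adjusted p = 0.0396 by edgeR). MIEN1, which overlaps ERBB2 on the other strand, was measured at 20.8 to 33.3 CPM, and the use of strand is not given in the sources used here, so some reads may have been divided between them.

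ERBB4, the other receptor of neuregulins, had 0 counts in all 9 libraries. At these depths 0 counts allow a level of up to 0.198 CPM (3 counts) in the shallowest library, shLMO2-1 replicate 3, and up to 0.130 CPM in the deepest. These floors cover counting error only.

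Between receptors, levels were compared per kilobase of exon. In control cells EGFR was at 437 ± 59.4 CPM per kilobase (SD, n = 3), ERBB3 at 5.61 ± 0.365 and ERBB2 at 5.17 ± 0.382. The ranges of ERBB3 (5.19 to 5.86) and ERBB2 (4.74 to 5.48) overlapped. This closeness depended on the length used. With the median length of coding transcripts, the control means were 49.3 for ERBB3 and 16.5 for ERBB2. The ratio of EGFR to ERBB2 per kilobase was 80.6 to 91.3 in control, 127 to 139 with shLMO2-1 and 95.6 to 115 with shLMO2-2. The ratio is given as a description without a test. With shLMO2-1 its 2 genes lay on opposite sides of the controls, and ratios of other gene pairs were not examined for comparison.

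TGFA, the gene of TGF-alpha, was the most abundant of the ligands. It stood at 56.9, 48.4 and 45.6 CPM in control, at 49.1, 41.8 and 44.2 CPM with shLMO2-1, and at 42.8, 39.5 and 43.4 CPM with shLMO2-2. The shLMO2-2 libraries lay below all controls, and 1 shLMO2-1 library did not. Its log2 fold change was −0.16 with shLMO2-1 (interval −0.37 to 0.05, adjusted p = 0.351 by edgeR) and −0.26 with shLMO2-2 (interval −0.48 to −0.05, adjusted p = 0.117). Without control replicate 1 these were −0.07 (adjusted p = 0.674) and −0.17 (adjusted p = 0.249).

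HBEGF, whose precursor is also the receptor of diphtheria toxin, was not called with either hairpin, and its differences were about 0.3 smaller on the log2 scale without 1 control library. Its values were 11.5, 7.12 and 5.97 CPM in control, 5.57, 4.92 and 5.41 CPM with shLMO2-1, and 6.65, 5.20 and 4.85 CPM with shLMO2-2. Control replicate 1 was far above the rest, the shLMO2-1 libraries were all below the controls, and 1 shLMO2-2 library was above the lowest control. The log2 fold change of HBEGF was −0.62 with shLMO2-1 (interval −1.14 to −0.11, adjusted p = 0.130 by edgeR) and −0.55 with shLMO2-2 (interval −1.06 to −0.05, adjusted p = 0.161). Without control replicate 1 the values were −0.31 (adjusted p = 0.331) and −0.24 (adjusted p = 0.475). With shLMO2-1, HBEGF passed the threshold with no filter on low counts (adjusted p = 0.0397).

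AREG, the gene of amphiregulin, was low, with 18 to 49 counts per library. It was at 2.84, 1.95 and 1.69 CPM in control, at 1.18, 1.41 and 1.32 CPM with shLMO2-1, and at 0.783, 1.95 and 2.11 CPM with shLMO2-2. The shLMO2-1 libraries lay below the controls, while 1 shLMO2-2 library lay below all other libraries and 2 lay inside the range of the controls. The log2 fold change of AREG was −0.72 with shLMO2-1 (interval −1.56 to 0.11, adjusted p = 0.271 by edgeR) and −0.42 with shLMO2-2 (interval −1.22 to 0.38, adjusted p = 0.523). Without control replicate 1 these were −0.49 and −0.18, and over the fits without 1 library the shLMO2-2 value ran from −0.67 to −0.09.

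BTC, the gene of betacellulin, had 24 to 42 counts per library. It stood at 1.74, 1.44 and 1.27 CPM in control, at 1.58, 1.70 and 1.78 CPM with shLMO2-1, and at 1.83, 1.53 and 1.44 CPM with shLMO2-2. The 3 groups overlapped. Its log2 fold changes were 0.19 (interval −0.38 to 0.76, adjusted p = 0.717 by edgeR) and 0.11 (interval −0.45 to 0.67, adjusted p = 0.823). BTC had 0.31 and 0.23 without control replicate 1.

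EREG, the gene of epiregulin and a close neighbour of AREG, was near the limit of detection. It had 5, 0 and 7 counts in control, 5, 2 and 0 with shLMO2-1, and 7, 2 and 2 with shLMO2-2. Each group held at least 1 library at 2 counts or fewer. Compared with control on the scale log2(CPM + 0.5) by an exact two-sided permutation test, shLMO2-1 had p = 0.6 and shLMO2-2 had p = 0.9, where 3 against 3 libraries cannot give a p under 0.1.

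**Figure D2:**
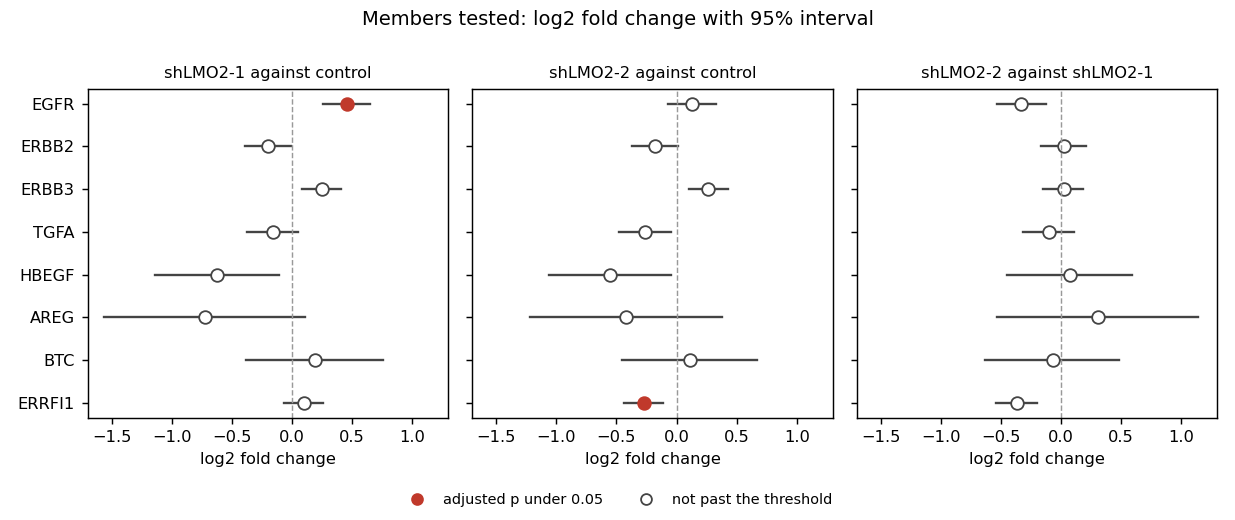
Log2 fold changes (x axis) of the 8 members tested (y axis), with 95% intervals, for shLMO2-1 against control, shLMO2-2 against control and shLMO2-2 against shLMO2-1. Filled points passed an adjusted p of 0.05 in edgeR: EGFR at 0.46 in the left panel and ERRFI1 at −0.27 in the middle panel. The intervals of AREG, BTC and HBEGF, the genes with the fewest counts, are the widest.

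Set against each other per kilobase of exon, the 5 member ligands formed a steep order in control cells: TGFA at 10.1 ± 1.18 CPM per kilobase, HBEGF at 2.71 ± 0.962, AREG at 1.31 ± 0.366, BTC at 0.526 ± 0.0847 and EREG at 0.0385 ± 0.0341 (SD, n = 3). The ranges of neighbours in this order did not overlap in the controls. TGFA made up 64.9% to 75.7% of the sum of the 5 ligands in every library. The sum was 12.7 to 17.7 CPM per kilobase in control, 11.5 to 13.1 with shLMO2-1 and 11.4 to 12.2 with shLMO2-2. EGFR stood above this sum by a factor of 27.7 to 33.7 in control, 46.0 to 55.0 with shLMO2-1 and 37.0 to 45.3 with shLMO2-2. The factors are a description without a test, and ratios of other genes were not examined for comparison. Bulk levels cannot tell a change in RNA per cell from a change in the share of cells that hold it.

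**Figure D3:**
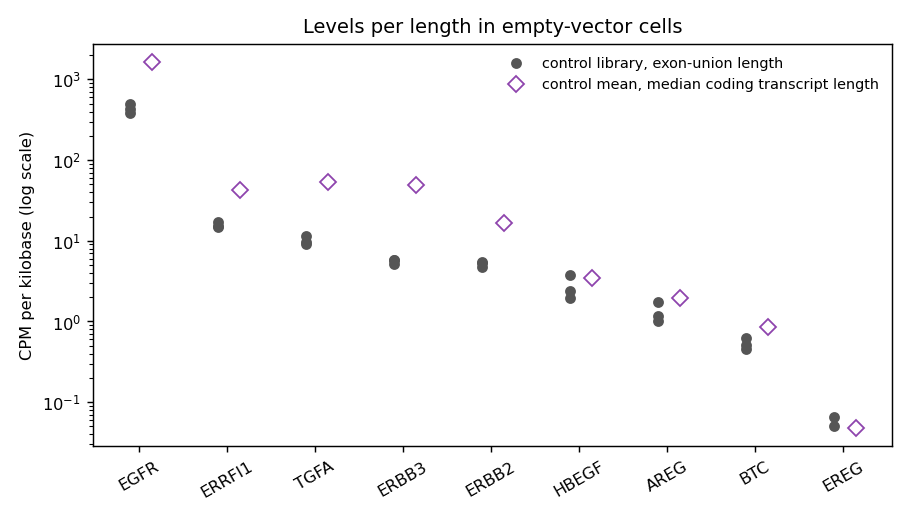
Levels of 9 members in the empty-vector cells, in CPM per kilobase on a log scale (y axis), by gene (x axis). Filled points are the 3 control libraries divided by the length of all exons together, and diamonds are the control mean divided by the median length of coding transcripts. The EREG library at 0 counts and ERBB4, with 0 counts throughout, cannot be drawn on this axis. EGFR leads at 437 and 1630 CPM per kilobase, while ERRFI1, TGFA and ERBB3 change places between the lengths.

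The choice of length moved the order in its middle. With the median length of coding transcripts, the control means were 1630 CPM per kilobase for EGFR, 53.0 for TGFA, 49.3 for ERBB3, 42.4 for ERRFI1 and 16.5 for ERBB2. ERRFI1, at 15.6 ± 1.25 (SD, n = 3) by exon length, was next after EGFR on that scale and came after ERBB3 on this one. HBEGF, AREG, BTC, EREG and ERBB4 kept their order under both lengths.

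Other ligands of the EGF family, from a list of 6, were below TGFA and HBEGF in control, or absent. Per kilobase of exon EGF averaged 0.764 CPM in control, below AREG (1.31) and above BTC (0.526). The sum of 5 ligands above leaves EGF out. EGF, the founding ligand, was at 4.87, 4.31 and 4.86 CPM in control, at 2.98, 3.40 and 1.91 CPM with shLMO2-1, and at 3.48, 3.76 and 3.41 CPM with shLMO2-2. All 6 hairpin libraries lay below all 3 controls, which was so for 8.59% of all genes tested. The log2 fold change of EGF was −0.75 with shLMO2-1 (interval −1.22 to −0.28) and missed the threshold at an adjusted p of 0.0543 by edgeR, and it was −0.40 with shLMO2-2 (adjusted p = 0.263). It passed with shLMO2-1 under DESeq2, under total-count scaling, under a filter of 10 counts in each library and without any filter. EPGN had 3 to 26 counts per library, with log2 fold changes of 0.82 (adjusted p = 0.363) and 1.12 (adjusted p = 0.182). The neuregulin gene NRG2 had 12 to 48 counts, with −0.73 (adjusted p = 0.283) and −1.02 (adjusted p = 0.128). NRG1 and NRG3 had 0 counts in all 9 libraries and NRG4 at most 3, so of the neuregulins only NRG2 was measured beyond a few counts.

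ERRFI1, the feedback inhibitor of EGFR, was lower with shLMO2-2, and no call was made with shLMO2-1. It stood at 71.5, 62.0 and 63.0 CPM in control, at 70.8, 69.8 and 69.3 CPM with shLMO2-1, and at 50.9, 54.0 and 57.6 CPM with shLMO2-2. The shLMO2-2 libraries lay below all other libraries, and the shLMO2-1 libraries lay inside the range of the controls. The means were 65.5 ± 5.25, 70.0 ± 0.772 and 54.2 ± 3.31 CPM (SD, n = 3). The log2 fold change of ERRFI1 was −0.27 with shLMO2-2 (SE 0.075, interval −0.44 to −0.11, adjusted p = 0.0464 by edgeR) and 0.10 with shLMO2-1 (interval −0.07 to 0.26, adjusted p = 0.485). The shLMO2-2 call was at the threshold: it was lost in 11 of 19 alternatives, with adjusted p from 0.0167 to 0.136 over all of them. It was lost without any 1 library other than control replicate 2, for example without control replicate 1 (−0.21, adjusted p = 0.0850) or shLMO2-2 replicate 1 (−0.24, adjusted p = 0.136).

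Between the hairpins, EGFR and ERRFI1 had the smallest p-values of the members. shLMO2-2 minus shLMO2-1 was −0.33 on the log2 scale for EGFR (interval −0.53 to −0.13, unadjusted p = 0.00396, adjusted p = 0.167 by edgeR) and −0.37 for ERRFI1 (interval −0.54 to −0.20, adjusted p = 0.0557). In both genes the 3 shLMO2-2 libraries lay below the 3 shLMO2-1 libraries, which was so for 9.12% of all genes tested. Neither passed the threshold, and 113 genes did (0.768% of all). Without control replicate 1, which is in neither group, both passed (adjusted p = 0.0292 for EGFR and 0.0130 for ERRFI1), and both passed when only the hairpin groups were fitted (EGFR 0.0348, ERRFI1 0.0263). ERRFI1 also passed under DESeq2 (0.00214). For the other 6 members the difference lay between −0.10 for TGFA and 0.31 for AREG, with adjusted p of 0.801 or more. The intervals reached from −0.15 to 0.18 for ERBB3 and from −0.17 to 0.21 for ERBB2, and from −0.53 to 1.14 for AREG.

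Counted over the 8 members tested, 1 was called with shLMO2-1 (EGFR, higher), where 8.42% of all genes were called, 4.54% higher and 3.88% lower. With shLMO2-2, 1 was called (ERRFI1, lower), where 8.97% were called, 4.94% higher and 4.04% lower. With the mean of both hairpins 2 were called (EGFR and ERBB3, higher), where 12.4% were called, 6.47% higher and 5.93% lower. EGFR had 0.29 in that comparison (adjusted p = 0.0344), and its call was lost under total-count scaling (0.25, adjusted p = 0.0753). Leaving out 1 library also ended it for control replicate 2 (adjusted p = 0.0993) and replicate 3 (0.12), for shLMO2-1 replicate 1 (0.0566) and replicate 2 (0.0828), and for shLMO2-2 replicate 2 (0.0826) and replicate 3 (0.0641). Between the hairpins 0 members were called by edgeR, 2 at an unadjusted p under 0.05 and 1 by DESeq2, where edgeR called 0.347% of all genes higher and 0.422% lower with shLMO2-2, 10.6% of all genes had an unadjusted p under 0.05 and DESeq2 called 2.15%. By ranges alone, 2 members lay above all controls with shLMO2-1 (EGFR and ERBB3) and 3 below (ERBB2, AREG and HBEGF), where 14.0% and 14.3% of all genes did. With shLMO2-2, 1 lay above (ERBB3) and 2 below (TGFA and ERRFI1), where 15.3% and 14.5% of all genes did. With 8 members, these counts are no result about the family. Their median log2 fold change was −0.03 with shLMO2-1 and −0.22 with shLMO2-2, against 0.001 and 0.0 over all genes tested. Both hairpins were compared with the same 3 controls, so their values are not independent of each other.

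The pathway around the receptors was described with 5 lists of 65 genes, of which 59 were tested. With edgeR 0 of the 59 were called with either hairpin, with their mean or between them. At an unadjusted p under 0.05 there were 12, 10, 13 and 2, where 23.9%, 24.9%, 28.0% and 10.6% of all genes were. DESeq2 called 3, 2, 1 and 0 in these comparisons, where it called 11.9%, 12.5%, 16.1% and 2.15% of all genes. Over the 59 genes the median log2 fold change was 0.05 with either hairpin, and 37 were positive in each, where 7383 and 7351 of all 14709 genes were.

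Of the 9 genes of ligand shedding 7 were tested, and ADAM12 and ADAM19 had too few counts. ADAM17, the main sheddase of TGF-alpha, amphiregulin and HB-EGF, had a log2 fold change of −0.06 with each hairpin (interval −0.21 to 0.08 with shLMO2-1 and −0.20 to 0.08 with shLMO2-2). The largest difference of this list was 0.29 for ADAM15 with shLMO2-2 (adjusted p = 0.175). All 18 adaptors and proximal effectors were tested, with medians of 0.04 for each hairpin. GRB2, the adaptor that links receptors to the exchange factor SOS, had 0.10 (interval −0.02 to 0.21) and 0.03 (interval −0.08 to 0.15), and SHC1 had −0.14 (adjusted p = 0.381) and −0.12 (adjusted p = 0.464).

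Among receptor trafficking genes and negative regulators, 21 of 22 were tested. LRIG1, a membrane protein that promotes receptor degradation, had 0.32 with shLMO2-1 (adjusted p = 0.0808 by edgeR) and 0.20 with shLMO2-2 (adjusted p = 0.243). PTPRJ, a phosphatase that acts on EGFR, had 0.43 (adjusted p = 0.0970) and 0.11 (adjusted p = 0.696). CBL, the ubiquitin ligase of active EGFR, had 0.04 (adjusted p = 0.911) and −0.16 (adjusted p = 0.554). DESeq2 called LRIG1, PTPRJ and EGF with shLMO2-1, and EPN1, an endocytic adaptor, and HRAS with shLMO2-2. The RAS, RAF, MEK and ERK core was tested in full, 10 of 10, with medians of 0.08 and 0.07. HRAS had 0.13 and 0.30 (adjusted p = 0.451 and 0.0753).

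**Figure D4:**
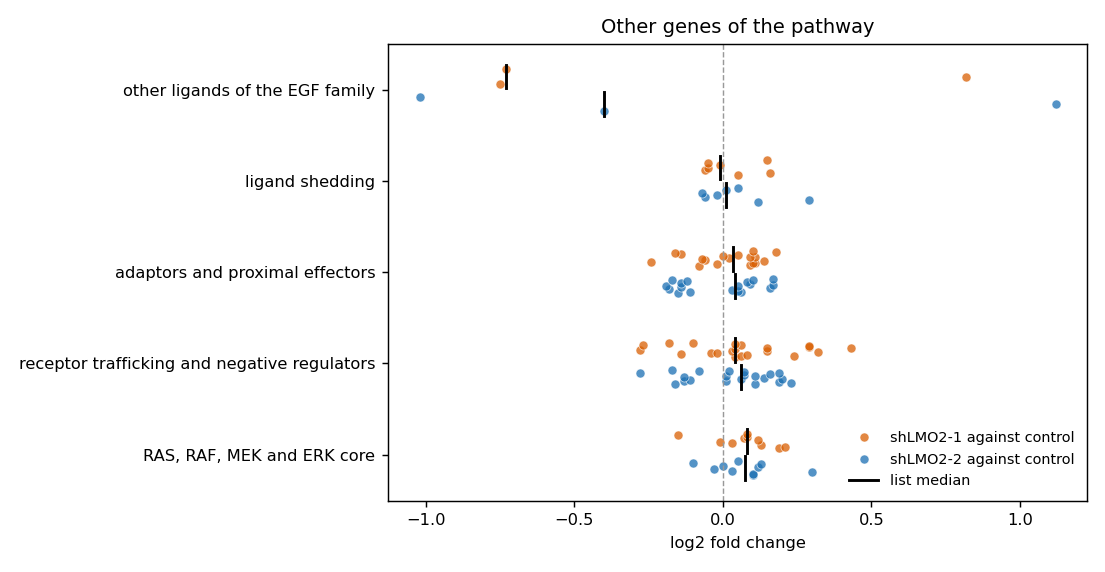
Log2 fold change (x axis) of every tested gene in 5 pathway lists (y axis), for shLMO2-1 and shLMO2-2 against control, with the list median as a bar. The other ligands, 3 genes, spread from −1.02 for NRG2 to 1.12 for EPGN, and the remaining lists stay between −0.28 and 0.43.

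Since EGFR is known to be amplified in this line, the genes around it were examined by position. The annotation has 15 protein-coding genes within 1 Mb of either end of EGFR, and 14 were tested (VSTM2A had at most 1 count). With shLMO2-1, 2 were called higher (SEC61G and VOPP1), where 4.54% of all genes were. With shLMO2-2, 5 were called higher (SEC61G, VOPP1, LANCL2, SUMF2 and NIPSNAP2), where 4.94% were. With the mean of both hairpins, 5 were called higher (SEC61G, VOPP1, LANCL2, SUMF2 and PSPH), where 6.47% were. None was called lower with either hairpin by edgeR with TMM scaling, and CCT6A was with shLMO2-1 under total-count scaling (−0.13, adjusted p = 0.0497). SEC61G and VOPP1 were called higher with both hairpins, as were 2.60% of all genes tested.

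SEC61G, a subunit of the channel that brings proteins into the endoplasmic reticulum, lies 259.0 kb before EGFR (chr7:54752250-54759974). It stood at 2031, 1808 and 1770 CPM in control, at 2408, 2704 and 2707 CPM with shLMO2-1, and at 2854, 2906 and 3033 CPM with shLMO2-2. The 3 groups did not overlap. Of all genes tested, 14.0% lay above all controls with shLMO2-1 and 15.3% with shLMO2-2. In 8.97% all shLMO2-2 libraries lay above all shLMO2-1 libraries. The log2 fold change of SEC61G was 0.48 (SE 0.065, adjusted p = 0.00166 by edgeR) and 0.65 (SE 0.065, adjusted p = 0.000288), and both calls held in all 19 alternatives. VOPP1, 224.4 kb after EGFR (chr7:55436056-55572988), was at 1360, 1584 and 1512 CPM in control, 1925, 2061 and 2238 CPM with shLMO2-1, and 1965, 2075 and 2228 CPM with shLMO2-2. All 6 hairpin libraries lay above the controls, as they did in 8.12% of all genes tested. Its log2 fold change was 0.48 (adjusted p = 0.00335 by edgeR) and 0.49 (adjusted p = 0.00301).

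LANCL2, a member of the lanthionine synthetase-like family and the nearest of these genes, 153.8 kb after EGFR, averaged 1421 ± 151 CPM in control, 1689 ± 64.8 CPM with shLMO2-1 and 1774 ± 76.9 CPM with shLMO2-2 (SD, n = 3). Its log2 fold change was 0.25 (adjusted p = 0.0602 by edgeR) and 0.32 (adjusted p = 0.0230), with all 6 hairpin libraries above the controls. The shLMO2-2 call was lost when shLMO2-2 replicate 2 (adjusted p = 0.0798) or replicate 3 (0.0865) was left out, and with only the groups compared (0.0534). The shLMO2-1 value of LANCL2 passed under DESeq2 (0.0319), without a filter on low counts (0.00912), with trends in GC content and length removed (0.0409) and without control replicate 2 (0.0464). Further away, SUMF2 had 0.17 (adjusted p = 0.228) and 0.41 (adjusted p = 0.0127), the latter lost without shLMO2-2 replicate 3 (0.34, adjusted p = 0.0541). NIPSNAP2 had 0.09 (adjusted p = 0.384) and 0.23 (adjusted p = 0.0381), the latter lost in 7 of 19 alternatives, among them the fits without control replicate 1 (0.19, adjusted p = 0.0814), control replicate 3 (0.102), shLMO2-1 replicate 2 (0.0659) or any of the shLMO2-2 libraries (0.0595, 0.108 and 0.140).

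The other neighbours were not called with either hairpin by edgeR as described above. PSPH had 0.22 with each (adjusted p = 0.0693 and 0.0728), and passed with each under DESeq2 (0.0348 and 0.0412), with trends in GC content and length removed (0.0156 and 0.0216) and without control replicate 2 (0.0363 and 0.0335). With the mean of both hairpins PSPH was called (0.22, adjusted p = 0.0346 by edgeR). CHCHD2 had 0.14 and 0.24 (0.465 and 0.191), and passed with shLMO2-2 without a filter on low counts (0.0131). CCT6A had −0.09 and −0.01 (0.200 and 0.936), and MRPS17 −0.04 and −0.05 (0.841 and 0.778). CCT6A turned positive once trends with GC content and length were removed, and MRPS17 without control replicate 2. Those with the lowest counts were AC092647.5 (0.50 and 0.14), ZNF713 (−0.09 and −0.18), SEPT14 (0.04 and −0.21), PHKG1 (−0.48 and 0.02) and NUPR2 (−0.17 and −0.28), with adjusted p of 0.321 or more. AC092647.5 overlaps ZNF713, NIPSNAP2 and MRPS17, and SUMF2 overlaps PHKG1, so reads may be divided between them.

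**Figure D5:**
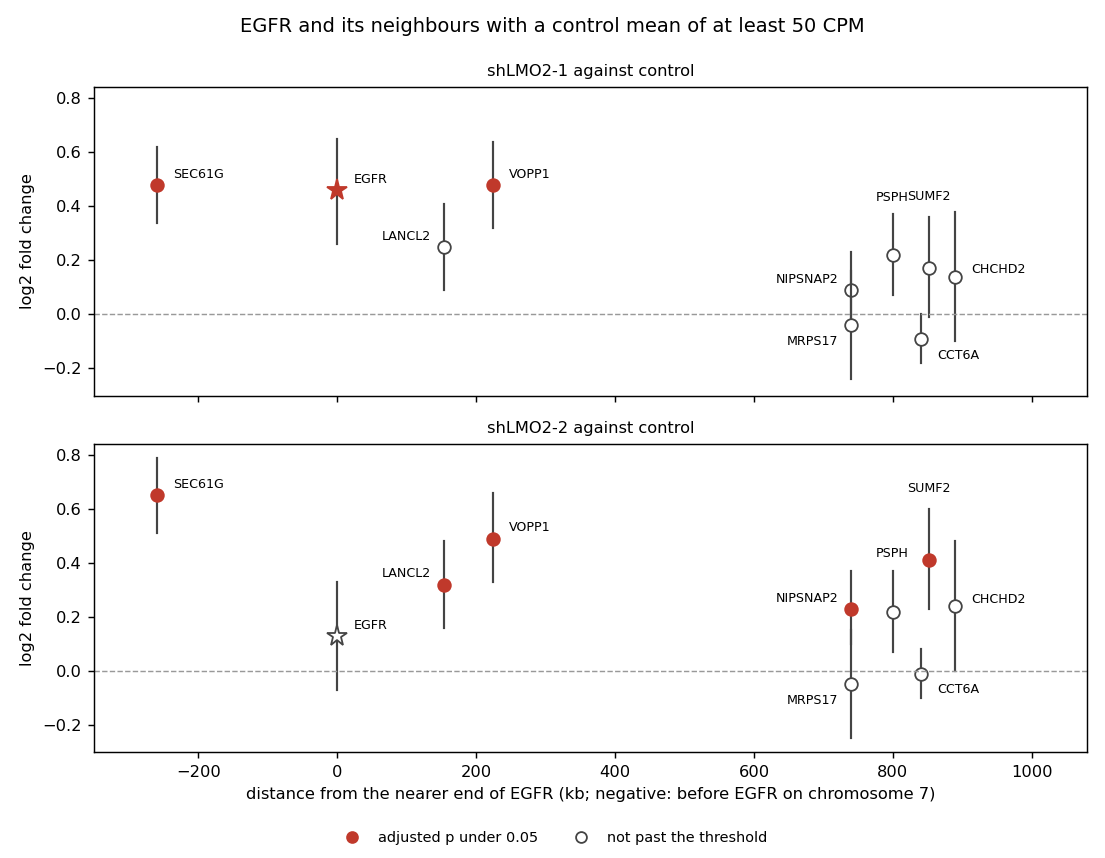
Log2 fold change with 95% interval (y axis) of EGFR (star) and of the neighbours with a control mean of at least 50 CPM (circles), by distance in kilobases from the nearer end of EGFR (x axis), for each hairpin against control. Filled symbols passed an adjusted p of 0.05 in edgeR. SEC61G and VOPP1 are filled in both panels, EGFR only in that of shLMO2-1, at 0.46 against 0.13 with shLMO2-2.

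With shLMO2-1, EGFR, SEC61G and VOPP1 had log2 fold changes of 0.46, 0.48 and 0.48, and with shLMO2-2 they had 0.13, 0.65 and 0.49. Between the hairpins the difference was −0.33 for EGFR (adjusted p = 0.167 by edgeR), 0.17 for SEC61G (adjusted p = 0.366) and 0.01 for VOPP1 (adjusted p = 0.982). DNA copy number was not measured, and its part in these values was not tested.

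Over the 9 libraries, the genes whose log2 CPM followed EGFR most closely, among 11031 genes with a mean of at least 5 CPM, were NF2 (Pearson's r = 0.985), FN1 (r = 0.979) and PXDN (r = 0.975). NF2 encodes the tumour suppressor merlin, FN1 fibronectin and PXDN peroxidasin, both of the latter matrix proteins. FN1 averaged 56.2 CPM in control, 96.5 CPM with shLMO2-1 and 67.9 CPM with shLMO2-2. In the same order NF2 averaged 73.0, 90.7 and 75.7 CPM, and PXDN 406, 531 and 432 CPM. Like EGFR, each was highest on average with shLMO2-1. Among the nearest to TGFA were CDYL (r = 0.957) and NBPF8 (r = 0.956), a pseudogene with near-identical copies whose level is uncertain. These correlations are descriptions over libraries that share their groups, and the genes were picked for the highest values.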

How the data were processed

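Bulk poly(A)-selected RNA was sequenced in 9 libraries of MDA-MB-468 cells. The extraction used the RNeasy Micro kit and the libraries NEBNext Ultra II, per the labels' protocols. The authors deposited estimated counts per gene symbol in 1 table, and 11.7% to 12.8% of a library's values were not whole. The submitters' processing notes name Salmon 0.12, DESeq2 1.22.2 and GRCh38.p12; the annotation release and the use of strand are not given in the sources used here. Libraries were placed in groups by the plasmid in the labels, and none was left out.

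Counts were rounded and tested with edgeR 4.0.16 (R 4.3.3): TMM scaling, filterByExpr (minimum count 10, minimum total 15) with LMO2 added back, a quasi-likelihood F-test over all 9 libraries without covariate, and Benjamini-Hochberg adjustment over 14709 genes holding 99.91% of the counts. Intervals are at 95%. All 56809 symbols were found in GENCODE release 29, which gave coordinates and exon lengths, and 175 of them have more than 1 gene ID there. The script was tested on simulated counts. The members, gene lists and tests were chosen with earlier results of these data known; the comparison with the mean of both hairpins was added after the data were seen. Genes named were all members, LMO2, pathway genes called with either hairpin, all tested neighbours of EGFR, and the 3 genes most correlated with EGFR and with the most abundant ligand. Pathway genes beyond that rule (none was called) were chosen for their roles after their values were seen. Alternatives were other scalings, filters, DESeq2 1.42.0, limma-voom 3.58.1, only the groups compared, a replicate block, removal of GC and length trends, and leaving out each library. Protein sequences were not used here, and some genes that these rules name are not reported here.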

Additional observations from a re-analysis of the deposited data

How the results depend on the processing

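Counts are low for AREG, BTC, EPGN and NRG2, whose intervals are wide, and for EREG, which was not tested by edgeR, and 3 libraries a group limit every call. Among the members' fold changes under the alternatives, 545 kept their side of the threshold, 24 gained a call, 26 lost one and 5 turned sign. The cause of these moves was not tested.

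Members called with shLMO2-1 numbered 1, but 2 with no filter, DESeq2 or GC and length trends removed, and 0 to 1 without 1 library. With shLMO2-2 they numbered 1, but 2 under DESeq2, 0 with no filter, GC and length trends removed or only the groups compared, and 0 to 1 without 1 library. Between the hairpins they numbered 0, but 2 with no filter or only the groups compared, 1 with at least 10 counts, DESeq2 or GC and length trends removed, and 0 to 2 without 1 library. With the mean of both they numbered 2, but 3 with no filter or DESeq2 (HBEGF, lower, added) or with GC and length trends removed (ERBB2, lower, added), 1 under total counts and 0 to 2 without 1 library.

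Pathway genes called with shLMO2-1 numbered 0, but 1 under total counts (EGF) or at least 10 counts, 4 with no filter, 3 under DESeq2, 2 with trends removed, and 0 to 2 without 1 library. With shLMO2-2 they were 2 with no filter or DESeq2, 1 with trends removed and 0 to 1 without 1 library. With the mean they were 2 under total counts or trends removed, 3 with no filter, 1 with at least 10 counts, DESeq2 or limma-voom, and 0 to 3 without 1 library.

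Of all genes, 1239 were called with shLMO2-1 (695 with only the groups compared, 546 to 1397 without 1 library), 1320 with shLMO2-2 (776, and 494 to 1243), 113 between the hairpins (378 with no filter, 316 under DESeq2, 172 with trends removed, 189 with only the groups compared, 38 to 239 without 1 library) and 1823 with the mean (947 to 1592 without 1 library).

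The replicate numbers were not taken as pairs in the main fit. Deviations of same-numbered libraries correlated at −0.063 to 0.296, and those of replicate 2 at 0.052 at most. Differently numbered libraries correlated at −0.308 to 0.182, and 8 of 9 libraries correlated best with their own number. The main fit takes no account of any spread shared by number. With the replicate block, members called numbered 3 with shLMO2-1 (EGFR, ERBB3, HBEGF), 3 with shLMO2-2 (ERBB3, ERRFI1, TGFA), 1 between the hairpins and 4 with the mean. Pathway genes called with the block were 4, 3, 0 and 5, and all genes 2214, 2377, 257 and 3024.

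The signs that turned belonged to results that were not called. Over the fits without 1 library, the difference between the hairpins ran from −0.05 to 0.10 for ERBB2, −0.01 to 0.07 for ERBB3 and −0.08 to 0.16 for HBEGF. BTC with shLMO2-2 ran from −0.0028 to 0.23. Among EGFR's neighbours with shLMO2-1, MRPS17 ran from −0.12 to 0.04 (0.02 in another), SEPT14 from −0.26 (−0.25 in another) to 0.27 and ZNF713 from −0.46 to 0.38 (0.14 in another), and CCT6A went to 0.02 with trends removed. With shLMO2-2, MRPS17 ran from −0.13 to 0.03, SEPT14 from −0.51 to 0.02, ZNF713 from −0.45 to 0.28 (0.06 in another), AC092647.5 from −0.14 (−0.04 in another) to 0.56 and PHKG1 from −0.17 (−0.03 and −0.02 in others) to 0.17. PHKG1 went to −0.03 under total counts or trends removed, and CCT6A to 0.10 with trends removed and from −0.02 to 0.0047 without 1 library.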
